A study of Rattus norvegicus with 129 samples.

Results

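Livers of 5 female rats taken 24 h after a single dose of phenobarbital were compared with livers of 5 females taken 24 h after vehicle alone. The comparison was chosen by its labels: rats 4506 to 4510 (phenobarbital) and rats 1506 to 1510 (vehicle), on 1 type of one-colour array. These are 10 of the 129 arrays of the series, and 10 of the 90 arrays of its study of phenobarbital and pregnenolone carbonitrile. The series gathers such profiles to examine which genes under the receptors CAR and PXR respond to perfluoroalkyl acids. All animals were Sprague-Dawley rats, housed singly. Phenobarbital was given by gavage at 100 mg/kg, and the vehicle was 0.5% methylcellulose in water with 1% Tween 80. Each array held RNA of 1 rat, and the labels used here give neither age, feeding state nor hour of collection. Values by rat are listed below in the order of these rat numbers.

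Phenobarbital is the classical inducer of drug metabolism in rodent liver. It activates the constitutive androstane receptor (CAR, Nr1i3) indirectly, by ending the signalling that keeps the receptor in the cytosol, and it can also engage the pregnane X receptor (PXR, Nr1i2). Both receptors pair with the retinoid X receptor and switch on cytochrome P450 genes of the Cyp2b, Cyp3a and Cyp2c families, together with conjugating enzymes and transporters.

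The level of a gene is given as log2(normalised intensity + 16), whose lowest possible value is 4.00, and a difference is the phenobarbital mean minus the vehicle mean on that scale ± SE, with n = 5 against 5. Because of the added 16, a fold taken from it understates the change of dim genes. The SE and p rest on a spread pooled over 89 arrays in 18 groups, not on the 10 compared rats alone. A gene was called where limma's Benjamini-Hochberg adjusted p over 8740 probe sets was under 0.05, two-sided. On this rule 353 probe sets (4.04%) were called, 202 higher (2.31%) and 151 lower (1.73%), and 1155 had an unadjusted p under 0.05. With arrays scaled to a common median the split was 202 higher and 80 lower. Read from 1 probe set each, 191 of 4736 genes were called (4.03%), 104 higher (2.20%) and 87 lower (1.84%). The median difference over all genes was 0. In 2.60% of genes every phenobarbital rat lay above every vehicle rat, and in 2.49% every one lay below.

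The arrays of the 10 rats had mean intensities of 184 to 454 and correlated within their group at 0.961 or above. Vehicle rat 1506 (184) and phenobarbital rat 4506 (233) gave the dimmest arrays of their groups and phenobarbital rat 4509 (454) the brightest. The number of arrays limits the precision. The called probe sets numbered 233 without rat 4506. The labelled tissue was borne out by hepatocyte markers, whose summed intensity over 11 genes was 61550 to 64966 in vehicle and 58222 to 61592 in phenobarbital rats. Of the markers of other cells, summed levels overlapped between the groups for macrophages, endothelium, bile ducts, lymphocytes and blood, with Csf1r, Ggt1, Cd2, Cd3d and Prf1 at 0 in all 10 rats. The summed stellate cell and fibroblast markers did not overlap (7419 to 9571 against 6278 to 7416). Des was at 0 throughout and 1 of 18 of these markers was called, Vim, against 1.84% of all genes called lower. Vim differed by −0.94 ± 0.28 with overlapping groups, a call lost without rat 4506, 4508, 4510, 1507, 1508, 1509 or 1510 (adjusted p up to 0.19). In whole liver, fewer cells of a type and less RNA per cell cannot be told apart, and the part of this shift in the results was not tested.

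P450 genes separated the groups clearly. Cyp2b2 measured 8.40, 7.76, 8.45, 7.33 and 8.37 in the vehicle rats and 12.86, 12.64, 12.65, 12.46 and 12.72 in the phenobarbital rats. The groups lay well apart at their closest, with a difference of 4.60 ± 0.29 (24.3-fold, adjusted p = 1.02e-21). Cyp2b15 measured 7.65, 7.63, 8.50, 7.94 and 7.84 in the vehicle rats and 11.26, 11.15, 11.18, 10.88 and 11.32 in the phenobarbital rats, a difference of 3.24 ± 0.19. Cyp2b enzymes hydroxylate many drugs, and their genes are such close copies that a probe set can take signal from several; Cyp2b1 was not analysed here. Cyp3a23-3a1 measured 10.35, 10.70, 10.95, 10.39 and 10.56 in the vehicle rats and 12.56, 12.18, 12.48, 12.10 and 12.49 in the phenobarbital rats. This gene, the Cyp3a enzyme most readily induced through PXR, rose by 1.77 ± 0.17 with no overlap.

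Of 17 measured phase 1 genes of the CAR and PXR list, 9 were called higher against 2.20% of all genes, and 1 lower, with a median difference of 0.39. Aldh1a1, which oxidises retinal and other aldehydes, rose by 2.14 ± 0.25, from 8.71 to 9.16 in vehicle rats to 10.81 to 11.37 under phenobarbital. Por, the reductase that feeds electrons to every microsomal P450, rose by 0.97 ± 0.26 (its other 2 probe sets measured 0.75, which passed, and 0.59, which did not), and microsomal epoxide hydrolase Ephx1 by 0.58 ± 0.15. Smaller rises were called for Cyb5a (0.36 ± 0.10) and Cyp2c6v1 (0.39 ± 0.09). Cyp3a2, near the floor in vehicle rats, was called at 1.35 ± 0.34, and the ω-hydroxylase Cyp4f1 fell by 0.45 ± 0.09. Cyp2c7 (0.10, adjusted p = 0.767), Cyp3a18 (0.25, 0.927) and Cyp1a2 (−0.36, 0.558) did not pass, nor did Cyp3a9 (1.07 ± 0.48). Calls were lost for Por without rat 1506 (0.84, adjusted p = 0.0587), for Cyp3a2 without rat 4507 (1.09, 0.0519) and also with a pseudocount of 64, in fits of the 10 arrays or of females alone and with rat 1003 (0.57 to 1.35, adjusted p up to 0.225), for Cyp2c6v1 on median scaling (0.111), and for Ephx1 and Cyp4f1 in the fit with male vehicle rat 1003, whose values sit displaced on part of the array (0.93 and 0.805).

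**Figure D1:**
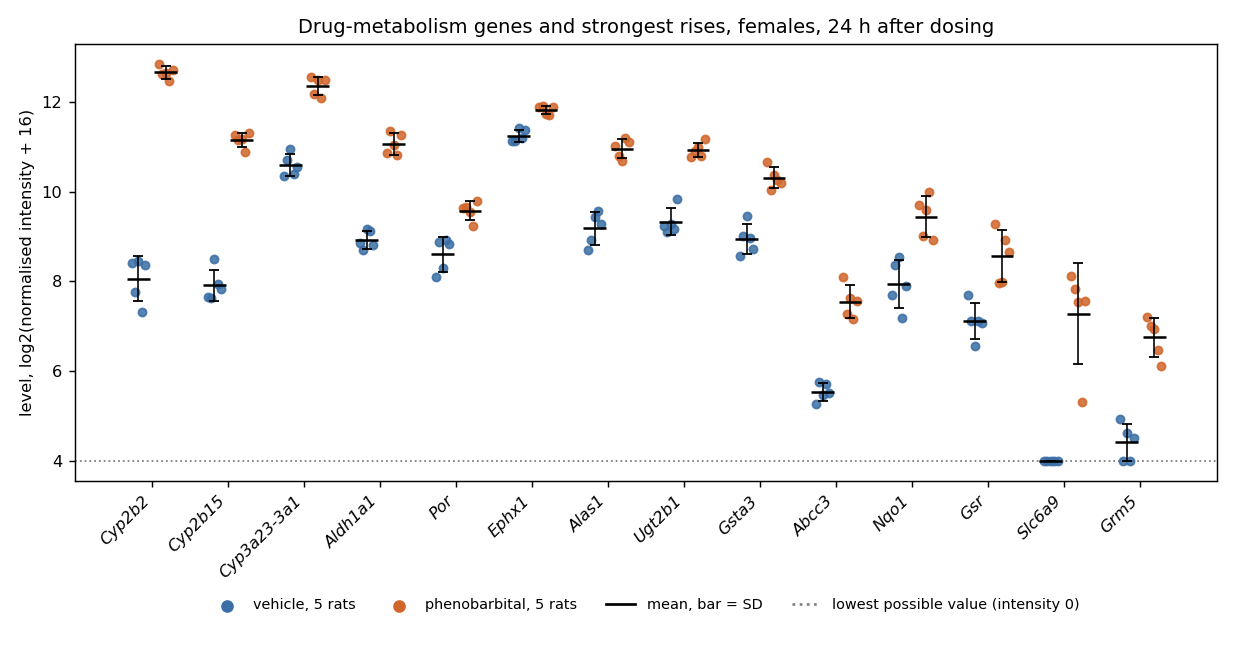
Level of 14 genes, as log2(normalised intensity + 16), in 5 vehicle and 5 phenobarbital females 24 h after dosing; points are rats, lines are means and bars are SD. The groups of Cyp2b2, Cyp3a23-3a1 and Alas1 do not overlap, and Slc6a9 sits on the floor of 4.00 in all vehicle rats.

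Haem, the prosthetic group of P450s, is made by a pathway whose first and limiting enzyme is Alas1. Alas1 measured 8.70, 8.93, 9.44, 9.58 and 9.29 in the vehicle rats and 11.02, 10.80, 10.70, 11.19 and 11.12 in the phenobarbital rats. The rise of 1.78 ± 0.25 (3.43-fold, adjusted p = 3.68e-07) was clear of the spread. Alas1 was the sole gene called among 10 measured in haem synthesis and turnover, against 2.20% of all genes called higher. The median of the 10 was 0.05, and Alad (0.16), Urod (0.07) and Ppox (0.20) did not pass.

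Conjugation and export moved through a few members. Ugt2b1 measured 9.24, 9.11, 9.28, 9.18 and 9.85 in the vehicle rats and 10.79 to 11.17 in the phenobarbital rats. Ugt2b1, a glucuronosyltransferase, rose by 1.60 ± 0.20 with no overlap, and Ugdh, which makes the UDP-glucuronate these enzymes use, rose by 0.60 ± 0.15. With Ugt1a5 (0.96 ± 0.29) these were 3 of 19 genes called higher in glucuronidation and sulfation, against 2.20% of all genes. The median of the 19 was 0.04, and no sulfotransferase among them passed. Gsta3 measured 8.56, 9.02, 9.46, 8.97 and 8.73 in the vehicle rats and 10.68, 10.05, 10.38, 10.27 and 10.19 in the phenobarbital rats, a rise of 1.36 ± 0.34. Gsta3 and Gstm1 (0.75 ± 0.14) were the 2 glutathione transferases called of 15, both higher, against 2.20% of all genes. Gsta4 differed by −0.02 (adjusted p = 1). The call of Ugt1a5 was lost when any of 7 rats was left out (4506, 4508, 4509, 4510, 1507, 1509 or 1510, adjusted p up to 0.169), and those of Ugdh and Gstm1 with rat 1003 in the fit.

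Abcc3 measured 5.26, 5.75, 5.46, 5.71 and 5.51 in the vehicle rats and 8.10, 7.27, 7.63, 7.15 and 7.57 in the phenobarbital rats. Abcc3 exports glucuronides across the sinusoidal membrane, and its rise of 2.01 ± 0.26 was 4.02-fold. The organic anion importer Slco1a4 rose by 1.05 ± 0.21, with overlapping groups. In the same list of 15 transporters the glucose carrier Slc2a2 and the bile acid importer Slc10a1 fell, the second by 0.43 ± 0.11. The canalicular exporter Abcc2 differed by −0.12 (adjusted p = 0.986). Thus 2 of the 15 were called higher, against 2.20% of all genes, and 2 lower, against 1.84%. The calls of Slco1a4, Slc2a2 and Slc10a1 were lost in the fit of the 10 arrays alone, and that of Slc10a1 also without rat 4509 (−0.28, adjusted p = 0.147).

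Genes under NRF2, the transcription factor of the antioxidant response, had a median difference of 0.56, and 5 of 16 were called, all higher, against 2.20% of all genes. Nqo1 measured 7.70, 8.36, 8.55, 7.19 and 7.90 in the vehicle rats and 9.71, 9.02, 9.58, 9.99 and 8.93 in the phenobarbital rats. Gsr measured 7.69, 7.11, 6.57, 7.12 and 7.06 in the vehicle rats and 9.27, 7.96, 8.00, 8.93 and 8.66 in the phenobarbital rats. In neither gene did the groups overlap: the quinone reductase Nqo1 rose by 1.51 ± 0.40 and glutathione reductase by 1.45 ± 0.34. Txnrd1, thioredoxin reductase, rose by 0.57 ± 0.13, and the list also holds Ephx1 and the peroxiredoxin Prdx1 (0.36 ± 0.10). The subunits of glutamate-cysteine ligase, Gclc (0.54) and Gclm (0.54), did not pass, and Hmox1 measured −0.54. In the fit of the 10 arrays alone 2 of the 16 were called; 3 were called without rat 4509 or without rat 1509, where Nqo1 was lost (1.32 to 1.37, adjusted p up to 0.0688). The call of Prdx1 was lost in the 10-array fit and without rat 4506, 4509, 4510, 1506, 1507 or 1509 (adjusted p up to 0.178).

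Some of the larger rises were of genes at or near the floor in vehicle rats, among them the glycine transporter gene Slc6a9. Slc6a9 measured 4.00, 4.00, 4.00, 4.00 and 4.00 in the vehicle rats and 8.13, 7.84, 7.54, 5.32 and 7.57 in the phenobarbital rats. It was at the floor in every vehicle rat and above it in every phenobarbital rat, lowest in rat 4509. Grm5 measured 4.94, 4.00, 4.61, 4.00 and 4.50 in the vehicle rats and 7.21, 7.01, 6.94, 6.47 and 6.12 in the phenobarbital rats. Grm5 (a glutamate receptor, 2.34 ± 0.30), Grin2a (an NMDA receptor subunit, 2.25 ± 0.55) and P2ry4 (a nucleotide receptor, 1.90 ± 0.38) likewise started at or near the floor. A dimmer probe set of Grin2a measured 0.19 and did not pass. All 4 calls held under every alternative, but their sizes follow the added constant: Slc6a9 was 3.28 ± 0.45 here and 1.74 to 7.06 over the alternatives, and Grm5 1.17 to 4.50. In males at 24 h P2ry4 measured −0.49, whereas Slc6a9 measured 4.09, Grm5 2.71 and Grin2a 1.42. Further rises that did not overlap were the transferrin receptor Tfrc (1.70 ± 0.37), the calcium-binding protein Sri (1.70 ± 0.39) and the α-tubulin Tuba4a (2.65 ± 0.72). Those 3 calls were lost in the fit of the 10 arrays alone, and Tuba4a's without rat 4506, 4509 or 1509 (2.40 to 2.41, adjusted p up to 0.0744).

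**Figure D2:**
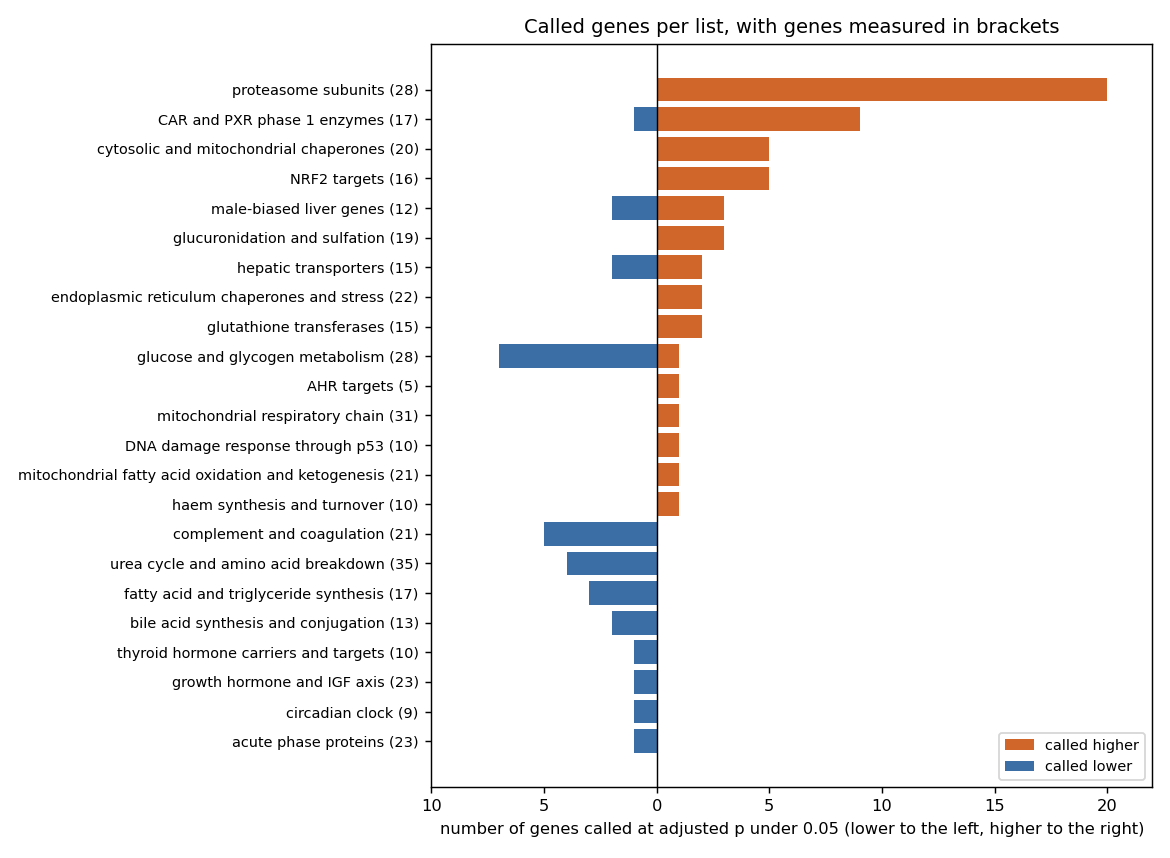
Number of genes called higher (right) and lower (left) at 24 h in females for each gene list with at least 1 call, with the genes measured in brackets; cell markers are left out. The proteasome list has 20 of 28 called higher, against 2.20% of all genes, and the glucose list 7 of 28 called lower, against 1.84%.

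The list with the most called members was the proteasome, the protease complex that degrades ubiquitin-tagged proteins. Of 28 measured genes 20 were called higher, against 2.20% of all genes, and none lower. The median difference of the 28 was 0.65. In 19 of the genes called higher every phenobarbital rat lay above every vehicle rat. Over all genes, called or not, the share was 2.60%, and genes picked by their call are more likely to separate. Psmb3 measured 9.28, 9.28, 9.24, 9.25 and 9.36 in the vehicle rats and 10.91, 9.76, 9.87, 10.73 and 10.04 in the phenobarbital rats. Psmc4 measured 7.72, 7.64, 7.98, 7.58 and 7.80 in the vehicle rats and 9.45, 8.27, 8.85, 9.31 and 8.33 in the phenobarbital rats. Psmb3, a β subunit of the core, rose by 0.98 ± 0.14, and Psmc4, an ATPase of the cap, by 1.10 ± 0.18. The rise covered α subunits of the core (Psma1 0.83 ± 0.13, Psma7 0.93 ± 0.13), its catalytic subunit Psmb5 (0.73 ± 0.11), cap ATPases (Psmc1 0.68 ± 0.09, Psmc2 0.78 ± 0.12) and other cap subunits (Psmd11 0.78 ± 0.12, Psmd13 0.98 ± 0.15).

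The immunoproteasome subunits Psmb8 (−0.40 ± 0.25) and Psmb9 (−0.32 ± 0.18) and the interferon-inducible activators Psme1 (−0.16) and Psme2 (−0.02) measured below 0 and did not pass. Psmb2, Psmd10, Psme4 and the assembly factor Pomp made up the other 4 that were not called from their brightest probe set (0.09 to 0.21). A second probe set of Psmb2 did pass (0.48, adjusted p = 0.00452), whereas dimmer probe sets of Psma1 (0.42) and Psma6 (−0.06) did not. Limma called none of 10 ubiquitin system genes and none of 37 cytosolic ribosomal protein genes (2 and 0 had an unadjusted p under 0.05). The 5 rats were uneven: the medians over the 20 called genes, each rat minus the vehicle mean, were 1.05, 0.41, 0.59, 1.16 and 0.50. Rats 4506 and 4509 were the highest pair in 19 of the 20, and these were also the dimmest and the brightest array of the group. Without rat 4506 19 of the genes were called, and without rat 4509 17. In the fit of the 10 arrays alone the count was 5 (Psma1, Psma6, Psma7, Psmc2 and Psmd11).

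Since these genes moved together, their RefSeq promoters (GRCr8, 250 bases before to 50 after the start) were searched on both strands for TGACNNNGC, the core of the antioxidant response element, and for CCAAT, the box bound by the factor NF-Y. TGACNNNGC occurred in 4 of 27 promoters of the list (14.8%), against 14.3% of 4205 tested genes and 12.1% of all 33469 promoters. Among promoters of members called higher it occurred in 2 of 19 (10.5%). CCAAT occurred in 14 of 27 (51.9%), against 37.8% of the tested genes and 37.5% of all, and in 10 of the 19 called higher (52.6%). The share for TGACNNNGC is near the background, and a match is a description of letters, not a bound site. The 2 promoters below were chosen after the matches were seen, each holding its motif 2 times. They are Psmb3 (chr10:83193537-83193836, plus strand; capitals mark CCAAT) and Psmd1 (chr9:94157721-94158020, plus strand; capitals mark TGACNNNGC).
Psmb3: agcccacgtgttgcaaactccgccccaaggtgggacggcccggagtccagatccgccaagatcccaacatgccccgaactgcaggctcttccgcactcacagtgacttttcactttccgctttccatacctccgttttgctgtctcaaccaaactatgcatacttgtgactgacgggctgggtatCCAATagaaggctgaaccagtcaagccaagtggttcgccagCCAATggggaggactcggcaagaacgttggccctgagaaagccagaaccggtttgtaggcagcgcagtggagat
Psmd1: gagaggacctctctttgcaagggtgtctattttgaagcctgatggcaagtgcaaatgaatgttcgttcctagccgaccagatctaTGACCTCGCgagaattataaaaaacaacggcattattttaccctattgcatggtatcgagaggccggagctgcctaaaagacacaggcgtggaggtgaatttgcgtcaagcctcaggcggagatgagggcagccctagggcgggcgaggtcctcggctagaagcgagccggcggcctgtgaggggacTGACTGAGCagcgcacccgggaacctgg
Psmd1 itself was called at 0.83 ± 0.18 from its brightest probe set, with no overlap between groups; of its 3 other probe sets 2 passed (0.81 and 1.38) and the dimmest did not (0.10).

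The proteasome genes were then followed over the times sampled in females. At 6 h after the dose 0 of 28 genes were called and the median was −0.11, and after 5 days of dosing 0 of 28 were called by limma with a median of −0.06 (1 and 1 had an unadjusted p under 0.05). The difference itself was tested in separate rats: the phenobarbital effect at 24 h exceeded that at 6 h in 15 genes (1.86% of all genes were called so), and the effect at 5 days fell short of that at 24 h in 16 (1.06% of all genes). For Psmc1 the effect was 0.04 at 6 h, 0.68 at 24 h and −0.16 at 5 days.

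**Figure D3:**
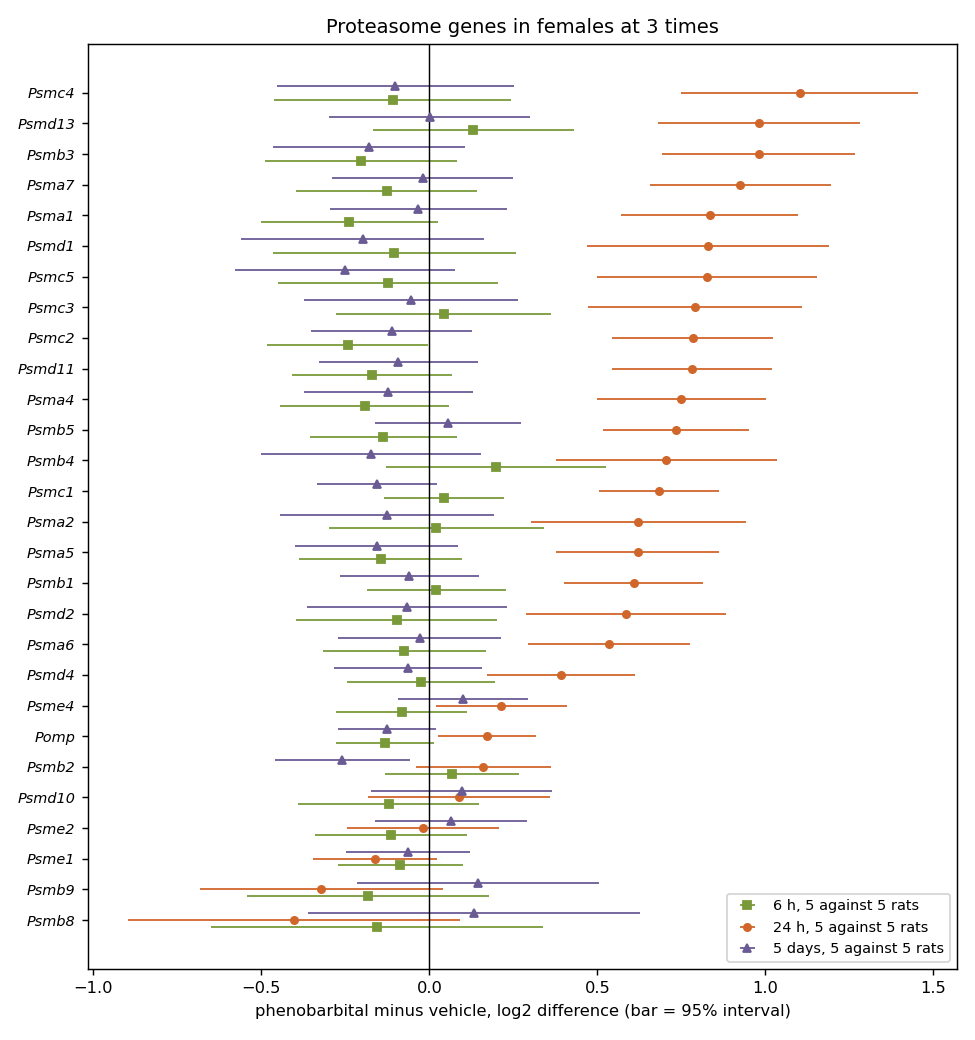
Phenobarbital minus vehicle log2 difference of the 28 measured proteasome genes in females at 6 h, 24 h and 5 days, each point from 5 against 5 rats with its 95% interval from the fit. At 24 h 20 intervals belong to called genes, whereas at 6 h and 5 days no gene was called and the medians were −0.11 and −0.06.

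Of 20 measured cytosolic and mitochondrial chaperones 5 were called higher at 24 h, against 2.20% of all genes, and none lower. Their median over the 20 was 0.12. Hsph1 measured 5.80, 6.01, 5.73, 5.57 and 5.77 in the vehicle rats and 7.99, 7.12, 7.20, 8.41 and 6.83 in the phenobarbital rats, a rise of 1.74 ± 0.40 in this partner of HSP70; its dimmer probe set measured 0.81 (adjusted p = 0.0807). Hsp90ab1 measured 10.00, 10.32, 10.34, 9.96 and 10.38 in the vehicle rats and 11.04, 11.07, 10.84, 11.16 and 10.74 in the phenobarbital rats, a rise of 0.77 ± 0.15 in the constitutive cytosolic HSP90. The mitochondrial pair Hspe1 (0.77 ± 0.15) and Hspd1 (0.42 ± 0.12) and the co-chaperone Stip1 (0.63 ± 0.17) completed the 5, whereas the inducible Hspa1a measured −0.22 and Dnajb1 0.09. At 6 h 7 chaperones had been called lower (1.48% of all genes were) and none higher: Hsph1 stood at −2.60, Hsp90ab1 at −0.95, Fkbp4 at −2.11 and Dnajb1 at −1.31. The effect at 24 h exceeded the effect at 6 h in 9 of the 20 (1.86% of all genes were called so), by 4.33 for Hsph1. In the endoplasmic reticulum 2 of 22 genes were called higher, against 2.20% of all genes: Hyou1 (1.06 ± 0.26) and Calr (0.47 ± 0.12). Hspa5 did not pass (0.28). With the 10 arrays alone 2 chaperones were called, with Hspd1, Stip1 and Hspe1 (adjusted p = 0.125) lost. Without rat 4506 or without rat 4509 3 were called, with Hspd1 and Stip1 lost. For Hspd1 and Stip1 the adjusted p was up to 0.215 over all these fits. Hyou1's call was lost without rat 4509 (0.86, adjusted p = 0.0642) and in the 10-array fit.

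Of the lists, glucose metabolism held the most called falls: 7 of 28 genes were called lower, against 1.84% of all genes, and 1 higher (Pgam1, 0.37 ± 0.09). The call of Pgam1 was lost without rat 4509 (0.26, adjusted p = 0.123) and in the 10-array fit (0.259). Sds measured 9.96, 10.99, 10.51, 11.04 and 8.05 in the vehicle rats and 4.00, 8.27, 4.00, 5.51 and 8.45 in the phenobarbital rats. Sds, serine dehydratase, which turns serine into pyruvate, was at the floor in rats 4506 and 4508, but vehicle rat 1510 lay below phenobarbital rats 4507 and 4510; the fitted difference was −4.06 ± 0.97. Pck1 measured 10.96, 10.89, 11.22, 10.52 and 10.85 in the vehicle rats and 8.20, 10.72, 9.36, 10.16 and 8.85 in the phenobarbital rats. Pck1, the entry enzyme of gluconeogenesis, differed by −1.43 ± 0.34, with rat 4507 overlapping the controls. Pklr measured 8.00, 8.43, 8.05, 8.43 and 8.56 in the vehicle rats and 6.62, 7.17, 7.33, 6.67 and 6.84 in the phenobarbital rats. Pklr, liver pyruvate kinase, fell by 1.37 ± 0.27 with no overlap, and its call held under every alternative.

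Slc2a2 measured 9.72, 10.11, 9.55, 10.07 and 10.20 in the vehicle rats and 8.88, 9.24, 9.24, 8.13 and 9.52 in the phenobarbital rats. This glucose carrier (GLUT2) fell by 0.93 ± 0.19, the pyruvate dehydrogenase kinase Pdk1 by 0.91 ± 0.20, and neither overlapped. Slc37a4 (−0.67 ± 0.15), the glucose 6-phosphate transporter, and pyruvate carboxylase Pc (−0.42 ± 0.12) were also called lower. Rats 4506 and 4509 were the lowest pair in 5 of the 7 genes. At 6 h limma called none of the 28 lower (19 measured above 0) and 3 higher, against 1.22% of all genes. The 3 were Pck1 (1.71), Pdk4 (4.20) and Igfbp1, all with overlapping groups. The effect at 24 h was below that at 6 h in 7 genes (1.08% of all genes were called so). Igfbp1, made by liver under fasting and low insulin, measured 5.32 at 6 h and −1.01 at 24 h. In the fit of the 10 arrays alone 2 of the 28 were called lower, and Pck1 was not called without rat 4506 (−1.12, adjusted p = 0.0678). The effect at 24 h on Sds differed from that at 6 h by −4.89, a call lost when any of 7 rats was left out (4506, 4508, 4509, 1507, 1509, 4503 or 4504; adjusted p up to 0.0872).

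**Figure D4:**
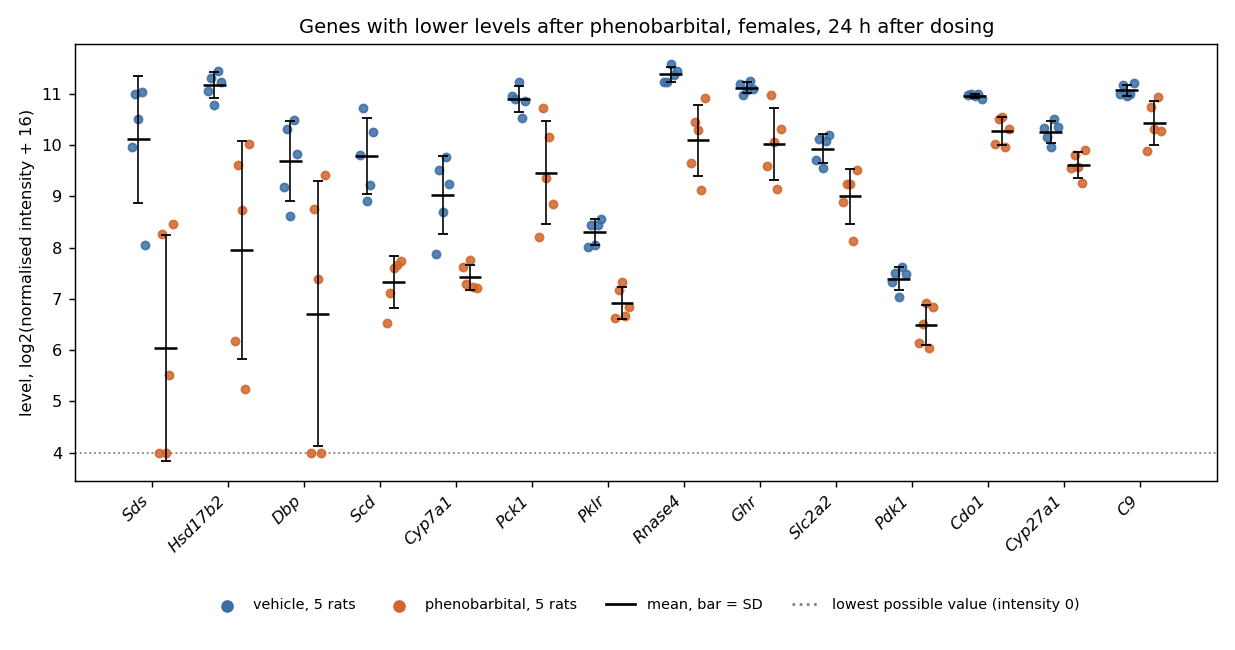
Level of 14 genes, as log2(normalised intensity + 16), in 5 vehicle and 5 phenobarbital females 24 h after dosing; points are rats, lines are means and bars are SD. Cdo1 and Pklr separate the groups in every rat, while Sds, Dbp and Pck1 spread widely under phenobarbital and overlap the vehicle rats; Cyp7a1 did not pass the test.

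Of 35 measured genes that handle urea and break down amino acids 4 were called lower, against 1.84% of all genes, and none higher. The 4 were Sds, Cdo1, Glul and Glud1. Cdo1 averaged 10.96 ± 0.04 (SD, n = 5) in the vehicle rats, all above the 10.01, 10.51, 10.54, 9.96 and 10.31 of the phenobarbital rats. Cysteine dioxygenase fell by 0.70 ± 0.10 without overlap, in every alternative. Glutamine synthetase Glul (−0.61 ± 0.16) and glutamate dehydrogenase Glud1 (−0.41 ± 0.10) were lower by less, and both calls were lost on median scaling; that of Glul was also lost without rat 4506 or 4509 (adjusted p up to 0.0588).

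Few lipid genes were called beyond the Δ9-desaturase Scd. Scd measured 9.81, 10.72, 8.91, 9.21 and 10.26 in the vehicle rats and 6.53, 7.11, 7.61, 7.65 and 7.74 in the phenobarbital rats. Scd differed by −2.45 ± 0.68 with no overlap, but its call was lost without rat 4506, 1507 or 1510 (−2.33 to −2.22, adjusted p up to 0.0831) and with rat 1003 (0.0707). With Pklr and Acsl1 (−0.34 ± 0.08) it made 3 of 17 lipogenic genes called lower, against 1.84% of all genes. Fasn (−0.45) and Srebf1 (−0.64) did not pass. Acsl1 was not called on median scaling, in the 10-array fit, with rat 1003 or as a mean of probe sets (adjusted p up to 1). Of 25 genes under PPARα limma called none (5 at an unadjusted p under 0.05). Of 21 in mitochondrial fatty acid oxidation 1 rose (the carnitine carrier Slc25a20, 0.91 ± 0.25), against 2.20% of all genes. Of 15 in cholesterol synthesis none was called (1 unadjusted), and 8 were called higher at 5 days (1.46% of all genes were). Limma called the difference between 5 days and 24 h for none of the 15 (2 unadjusted). Cyp7a1 measured 7.87, 9.52, 8.69, 9.77 and 9.25 in the vehicle rats and 7.62, 7.28, 7.75, 7.23 and 7.20 in the phenobarbital rats. Cyp7a1, the rate-limiting enzyme of bile acid synthesis, did not overlap between the groups but missed the threshold (−1.60 ± 0.67, adjusted p = 0.225). The sterol 27-hydroxylase Cyp27a1 fell by 0.64 ± 0.13, and Akr1d1 was called at −0.61 ± 0.18. Slc25a20 was not called without rat 4506, 4509 or 1507, nor Akr1d1 without 4506, 4509, 1507 or 1508 (adjusted p up to 0.121).

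Hsd17b2 measured 11.05, 11.32, 10.78, 11.44 and 11.24 in the vehicle rats and 6.18, 9.60, 8.74, 5.24 and 10.02 in the phenobarbital rats. Hsd17b2, which inactivates oestradiol and testosterone, fell by 3.21 ± 0.60, with rats 4506 and 4509 lowest. Ghr measured 11.20, 10.97, 11.08, 11.25 and 11.10 in the vehicle rats and 9.59, 10.98, 10.06, 9.14 and 10.30 in the phenobarbital rats. The growth hormone receptor differed by −1.10 ± 0.21, with rat 4507 inside the vehicle range. It was the sole gene called of 23 in the growth hormone and IGF axis, against 1.84% of all genes called lower. Dbp measured 9.19, 10.32, 8.61, 10.49 and 9.82 in the vehicle rats and 4.00, 8.76, 7.38, 4.00 and 9.41 in the phenobarbital rats. Dbp, an output of the circadian clock, was at the floor in rats 4506 and 4509 and its call of −2.98 ± 0.89 was lost without rat 4506, 4509, 1507, 1509 or 1510 (adjusted p up to 0.24); the other 8 clock genes were not called. Rnase4 fell by 1.29 ± 0.21, RT1-S3 by 1.10 ± 0.26 and the nucleoside carrier Slc28a2 by 1.01 ± 0.23. In the fit of the 10 arrays alone Hsd17b2, Ghr, Rnase4 and RT1-S3 were not called (adjusted p of 0.0801 to 0.14).

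Of 21 complement and coagulation genes 5 were called lower, against 1.84% of all genes, and 2 measured above 0, with a median of −0.22. C9 measured 10.96 to 11.21 in the vehicle rats and 9.88, 10.75, 10.30, 10.95 and 10.28 in the phenobarbital rats. C9, the pore-forming complement component, fell by 0.63 ± 0.14, C1s by 0.55 ± 0.12 and the anticoagulant protease Proc by 0.26 ± 0.07; Proc was not called without rat 4509 or 1507 (−0.23, adjusted p up to 0.0799). On median scaling 1 of the 21 was called, with the 10 arrays alone 0 (limma), and 3 without rat 4506, 4509 or 1507. Of 23 acute phase genes 1 was called, ceruloplasmin (Cp, −0.34 ± 0.08), against 1.84% of all genes called lower. That call was lost on median scaling, in the 10-array fit, with rat 1003 and as a mean of probe sets (adjusted p up to 1). The copper exporter Atp7b (−1.07 ± 0.26) sat near the floor. Serpina7, the thyroxine carrier, measured −1.77 ± 0.57 (adjusted p = 0.0622) and did not pass; Klf9, a thyroid hormone target, was called at −0.81 ± 0.24, a call lost without any of 7 rats (4506, 4508, 4509, 1507, 1508, 1509 or 1510; adjusted p up to 0.221).

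Genes with a sex bias in rat liver moved both ways. Of 12 male-biased genes 3 were called higher (Cyp3a2, Gstm1 and Cyp2a2, 0.56 ± 0.16) and 2 lower (Hsd17b2 and Cyp2d3, −0.42 ± 0.10), with a median of 0.14. Over all genes 2.20% were called higher and 1.84% lower. Of the 12, 1 was called higher without rat 4507, in the fit of females alone, in that of the 10 arrays and with rat 1003. The call of Cyp2a2 was lost without rat 4506, 4507, 4508, 4510, 1507 or 1510 (adjusted p up to 0.101), and that of Cyp2d3 on median scaling, in the 10-array fit and with rat 1003 (adjusted p up to 0.203). Of 13 female-biased genes none was called by limma (3 at an unadjusted p under 0.05), and the female P450 Cyp2c12 measured −0.42 ± 0.42 (adjusted p = 0.866). The male P450 Cyp2c11 measured 0.68 ± 0.24 (adjusted p = 0.101) from its brightest probe set, with no overlap, while its other 2 probe sets passed at 1.72 (adjusted p = 6.86e-04) and 0.54 (0.0115). Mdm2, the p53 inhibitor, was called at 0.98 ± 0.21 from its brightest probe set, the sole call among 10 p53 response genes, but its other probe sets measured −0.10, 0.36 and 0.00 and the mean over all of them was 0.31 (adjusted p = 0.284). Limma called no gene of 26 in the cell cycle and none of 33 nuclear receptors and partners (2 and 2 unadjusted).

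Males given the same dose were sampled at the same hour in separate rats, 5 against 5, and allow the female result to be set beside an independent one. In males 107 genes were called (2.26%), 1.27% of all genes higher and 0.992% lower, and 51 genes were called in both sexes, 26.7% of the female and 47.7% of the male list, each in the same direction. Of the 191 genes called in females 179 (93.7%) had the same sign in males, where 53.1% of all genes measured above 0. Both figures count Dhrs7c and Xrcc5, whose male differences were positive only by rounding error. The 53.1% also counts any other floor gene with such a residue, and the number of these was not counted. In females the share of all genes above 0 was 44.1% at 6 h and 41.4% at 5 days. The median of the 104 risen genes was 0.74 in females and 0.36 in males, and that of the 87 fallen genes −0.54 and −0.31; the genes were chosen on the female values, which favours larger sizes in females. Cyp2b2 measured 3.76 in males, Slc6a9 4.09, Alas1 1.78, Sds −4.71 and Scd −3.22. The proteasome list had 7 called higher in males and a median of 0.36, Hsph1 1.24 (adjusted p = 0.096), and the glucose list 6 called lower.

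When the difference between the sexes was tested gene by gene, no gene passed by limma (211 had an unadjusted p under 0.05), and 1 of 8740 probe sets did (0.0114%). That probe set is shared by Cyp3a2 and Cyp3a23-3a1. It measured 8.71, 8.39, 9.79, 8.31 and 8.53 in vehicle females and 12.24, 11.70, 12.16, 11.46 and 11.94 in phenobarbital females. In males it measured 11.33, 11.99, 11.14, 11.93 and 11.88 under vehicle and 12.20, 12.22, 12.44, 12.37 and 12.26 under phenobarbital. Vehicle males thus lay near the treated females, and the female minus male effect was 2.51 ± 0.41 (adjusted p = 5.14e-04). Cyp3a2 alone measured 0.01 ± 0.34 in males, and its sex difference of 1.35 ± 0.48 did not pass (adjusted p = 0.75).

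**Figure D5:**
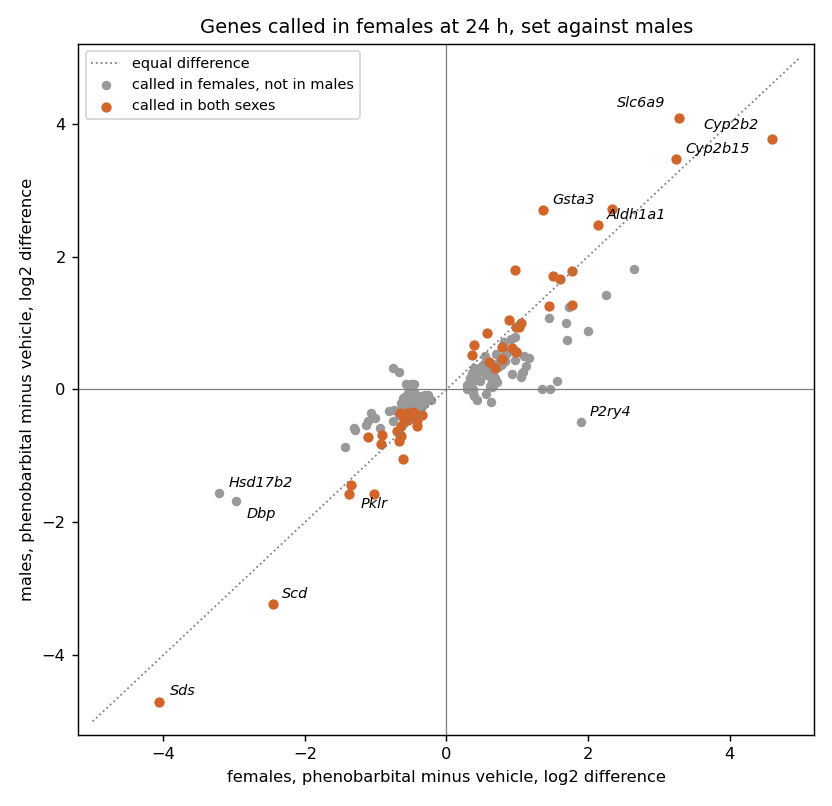
Phenobarbital minus vehicle log2 difference at 24 h of the 191 genes called in females, females on the horizontal and males on the vertical axis, from separate rats. Of these genes 179 have the same sign in both sexes, counting Dhrs7c and Xrcc5, whose male differences are positive only by rounding error. Orange points are the 51 called in both, and the dotted line marks equal differences.

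Against the 6 h and 5-day groups the 24 h result changed in content. At 6 h 128 genes were called (2.70%), 1.22% of all genes higher and 1.48% lower; 17 of them were called at 24 h too (13.3% of the 6 h and 8.90% of the 24 h list), 6 in the same direction. At 5 days 121 genes were called (2.55%), 1.46% higher and 1.10% lower, with 31 shared with 24 h and 29 of those in the same direction. Cyp2b2 measured 3.34 at 6 h, 4.60 at 24 h and 3.76 at 5 days, and Cyp3a23-3a1 1.46, 1.77 and 1.24; neither interaction passed. Alas1 measured 0.32, 1.78 and 0.66, and its 24 h effect exceeded that at 6 h (adjusted p = 0.00783). The effect at 24 h differed from that at 6 h in 139 genes (2.93%), 88 higher (1.86%) and 51 lower (1.08%), and the effect at 5 days from that at 24 h in 76 (1.60%), 26 higher (0.549%) and 50 lower (1.06%). Gsta4, −0.02 at 24 h, reached 1.00 at 5 days (adjusted p of the difference = 6.91e-04), and Ephx1 went from 0.58 to 1.54 (0.00328).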

How the data were processed

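The deposited values are probe set intensities on a linear scale, made by the authors with a normalisation that is not given in the sources used here; the file holds 102 array columns, of which the 90 of this study were used. They were quantile normalised, floored at 0 and taken as log2(value + 16) from the deposited intensities. limma 3.58.1 (R 4.3.3) fitted 18 group means to 89 arrays, without male vehicle rat 1003, whose values are displaced over part of the array. Benjamini-Hochberg adjustment ran over 8740 probe sets, after leaving out 59 control probe sets.

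Where several probe sets carried only one gene's symbol in the platform annotation, the brightest on average stood for that gene: 7018 probe sets had 1 symbol, 308 several and 1473 none. Named genes were key genes, the 15 largest called rises and falls, up to 5 called members per direction of each of 37 lists, and 8 genes per direction of each interaction. Alad, Urod, Ppox, Gclc, Gclm, Hmox1, Fasn, Srebf1, Cyb5a, Cyp3a9, Slc37a4, Pc and, where not called, other list members were chosen after their values were seen. So were the called proteasome genes Psma6, Psmb5, Psmc1, Psmc2 and Psmd11. The comparison, its members and the lists were chosen with earlier results of these data known. The labels do not say how rats were allotted, so p-values measure only a spread between animals, here pooled over the 18 groups of the fit. Python 3.11.15 made the summaries. Tested on simulated data for the 24 h comparison, limma recovered 25, 42, 47 and 50 of 50 changed probe sets at log2 changes of 0.5, 1.0, 2.0 and 3.0. The changed probe sets were drawn only from those bright in vehicle females, and the noise was normal with the pooled spread. Recovery near the floor was not tested. Alternatives changed the pseudocount, scaling, filter, arrays in the fit, moderation, probe set rule and left-out rat.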

Additional observations from a re-analysis of the deposited data

Results flagged for a closer look

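For normal values chance sets 1 rat apart in about 1 in 20 groups, a rate that does not hold where rats sit at the floor. In 11 of 208 groups of 5 (5.29%) 1 rat stood apart from the others of its group. Under phenobarbital these were rat 4506 for Atp7b (4.45, the others at 4.00), C1s (9.80 against 10.50 to 10.74) and Cyp2c12 (10.21 against 10.70 to 10.81), and rat 4509 for Cyp2a2 (9.75 against 10.41 to 10.51), Slc2a5 (5.24 against 6.50 to 6.93) and Slc6a9 (5.32 against 7.54 to 8.13). Under vehicle they were rat 1507 for Cyp2c11 (7.13 against 8.13 to 8.35) and Ech1 (7.96 against 8.47 to 8.62), rat 1508 for Grin2a (4.04, the others at 4.00), rat 1506 for Klf9 (9.28 against 9.88 to 10.05) and rat 1510 for Ugt2b1 (9.85 against 9.11 to 9.29).

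The phenobarbital effect in females differed between times by limma's interaction test. At 24 h minus 6 h the difference was 4.33 for Hsph1, 3.99 for Tuba4a, 3.03 for Dusp6, 2.84 for Fkbp4, 2.83 for Tfrc, 2.40 for Sri, 2.37 for Nqo1 and 2.30 for Ppil3. It was −6.33 for Igfbp1, −4.89 for Sds, −3.79 for Pdk4, −3.21 for Hsd17b2, −3.15 for Pck1, −2.66 for Mtmr7, −2.15 for Klf10 and −1.90 for Klf9. The call of Sds was lost in 9 of 30 alternatives, Klf10 in 4, Hsd17b2 in 3 and Tuba4a in 2. Mtmr7, Pdk4 and Ppil3 were each lost in 1, and the other calls held in all.

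At 5 days minus 24 h the difference was 5.18 for Sds, 3.66 for Scd, 3.08 for Scd2, 2.06 for Fabp5, 1.65 for Gstt1, 1.56 for Vim, 1.53 for Slc2a5 and 1.30 for Pfkfb1. It was −3.92 for Tuba4a, −2.66 for Eci1, −2.54 for Ech1, −2.17 for Hsph1, −1.77 for Dusp6, −1.72 for Cyp4a1, −1.38 for Acaa2 and −1.35 for Fkbp4. Of 30 alternatives, 14 lost the calls of Slc2a5 and of Fkbp4, 11 that of Pfkfb1 and 10 that of Sds. The calls of Scd and Hsph1 were lost in 8 and that of Tuba4a in 7. Vim, Cyp4a1, Ech1, Eci1 and Fabp5 were lost in fewer, and Acaa2, Dusp6, Gstt1 and Scd2 in none. Between the sexes the effect differed by 2.51 for the probe set shared by Cyp3a2 and Cyp3a23-3a1.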

How the results depend on the processing

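Of the 111 named results that were called, 33 were called under every alternative run, and none reversed. The 353 probe sets called at 24 h in females became 154 when the 10 arrays were fitted alone (112 of them shared), and 233 to 412 when 1 rat was left out, lowest without rat 4506. The fit with rat 1003 called 240. The difference between 24 h and 6 h held 254 probe sets, 167 with rat 1003, and 184 to 372 leaving out 1 rat. That between 5 days and 24 h held 142, which fell to 32 in the fit of its own groups, 78 with rat 1003, and 87 (without rat 1514) or 88 (without rat 4506) to 177 leaving out 1 rat. The sex difference held 1 probe set, 2 with a pseudocount of 1, and 1 to 4 leaving out 1 rat, most without male vehicle rat 1007. Rat 1003 belongs to no compared group. Fits with it, or of the compared groups alone, changed the SE and p but not the differences (Ephx1 0.575 with and without rat 1003). The cause of the other shifts was not tested. Fits of the compared groups alone ended 64 of the 111 calls, rat 1003 ended 33 and median scaling 16. Those 64 include calls of interactions, whose groups hold more arrays than the 10. Genes near the floor change size with the pseudocount. No paired analysis was possible because the groups compared share no rat number.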
